A study of Mus musculus with 21 samples.

Results

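Loss of PDS5B was examined across all genes by comparing 3 RNA-seq libraries of Pds5b-/- siGLO mESCs with 3 libraries of WT siGLO mESCs, which are 6 of the 21 libraries of the series. All were v6.5 male mouse embryonic stem cells (mESCs) grown on gelatin and transfected with the transfection control siGLO, an siRNA without a target gene, at 50 nM for 48 h. The Pds5b-/- libraries came from a single CRISPR clone and the WT libraries from the parental genotype. An effect of the clone and an effect of the disrupted gene therefore cannot be told apart. The study calls the libraries of a genotype biological replicates of its clone, so p-values measure the spread between replicates of 1 clone and not between clones. Further groups used for reference were WT siPds5b mESCs, in which Pds5b was knocked down with siRNA, and Pds5a-/- siGLO mESCs, a single clone lacking the paralog, with 3 libraries each. The total count was 19187351 to 20445930 per Pds5b-/- siGLO library and 17539639 to 23989198 per WT siGLO library.

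PDS5B and its paralog PDS5A bind the cohesin ring through its RAD21 subunit. Cohesin holds sister chromatids together and extrudes chromatin loops, which bring enhancers and promoters of a domain close to each other. The PDS5 proteins are reported to help release cohesin from chromatin, to protect it and to stop it at CTCF sites. The paper saw unchanged cohesin levels at CTCF sites in cells lacking both PDS5 proteins and calls the stopping role into question. In mESCs cohesin loops bear on genes of the pluripotency network and on developmental genes that are held silent by Polycomb complexes.

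The Pds5b-/- clone was made with 2 guide RNAs, which are shown because they fix the site at which the gene was opened. Both match exon 3 of 35 of Pds5b-201, a protein-coding transcript, within the coding part and on the plus strand of chromosome 5 (mm10). The first lies at chr5:150719930-150719949 and the second at chr5:150720005-150720024, so that their cut positions are 75 bases apart. For the clone used for RNA-seq, the paper describes the edit as a small homozygous insertion in this exon, not as a deletion. Each guide is printed in lower case, followed in capitals by the 3 bases of the protospacer adjacent motif that SpCas9 needs.
Pds5b sgRNA 1: tgataaagatgttcgtttacTGG
Pds5b sgRNA 2: cacgtctcccgataaactaaAGG

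Values are normalized counts, meaning counts scaled to a common library size, and a gene was called a differentially expressed gene (DEG) at an adjusted p under 0.01 by edgeR's quasi-likelihood test with Benjamini-Hochberg adjustment over 14963 tested genes. Pds5b itself stood at 2354, 2019 and 2285 in the WT siGLO libraries and at 278, 312 and 238 in the Pds5b-/- siGLO libraries. Every knockout library was far below every WT library, and the transcript fell by 3.01 ± 0.12 on the log2 scale (SE, adjusted p = 8.81e-14). The WT siPds5b libraries were in between, at 687, 839 and 802. The paralog Pds5a was at 5256, 4720 and 5200 in WT and at 6303, 5360 and 5474 in Pds5b-/- mESCs, a log2 difference of 0.17 ± 0.09 that did not pass the test (adjusted p = 0.136).

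Across the genome, 1443 genes rose and 1282 fell in Pds5b-/- siGLO mESCs, so that 18.2% of the tested genes were DEGs, 9.64% higher and 8.57% lower. Most changes were small: 73.2% of the DEGs changed by less than 1 on the log2 scale, 373 genes rose by at least that much and 358 fell by it. Knockout and WT libraries did not overlap in 2702 of the 2725 DEGs, against 45.3% of all tested genes. The number of DEGs was 1704 without Pds5b-/- library 2 and up to 2611 without another library. Without Pds5b-/- library 2 the number of higher DEGs was 919. The number of lower DEGs was 788 and 785 without Pds5b-/- library 1 or 2, and 848 and 846 without WT library 2 or 3. Against the WT siPds5b libraries in place of WT siGLO, 1404 genes (9.38%) were higher and 1416 (9.46%) lower, and both comparisons share the knockout libraries. Without Pds5b-/- library 2 the total of 2820 in that comparison was 1685.

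**Figure D1:**
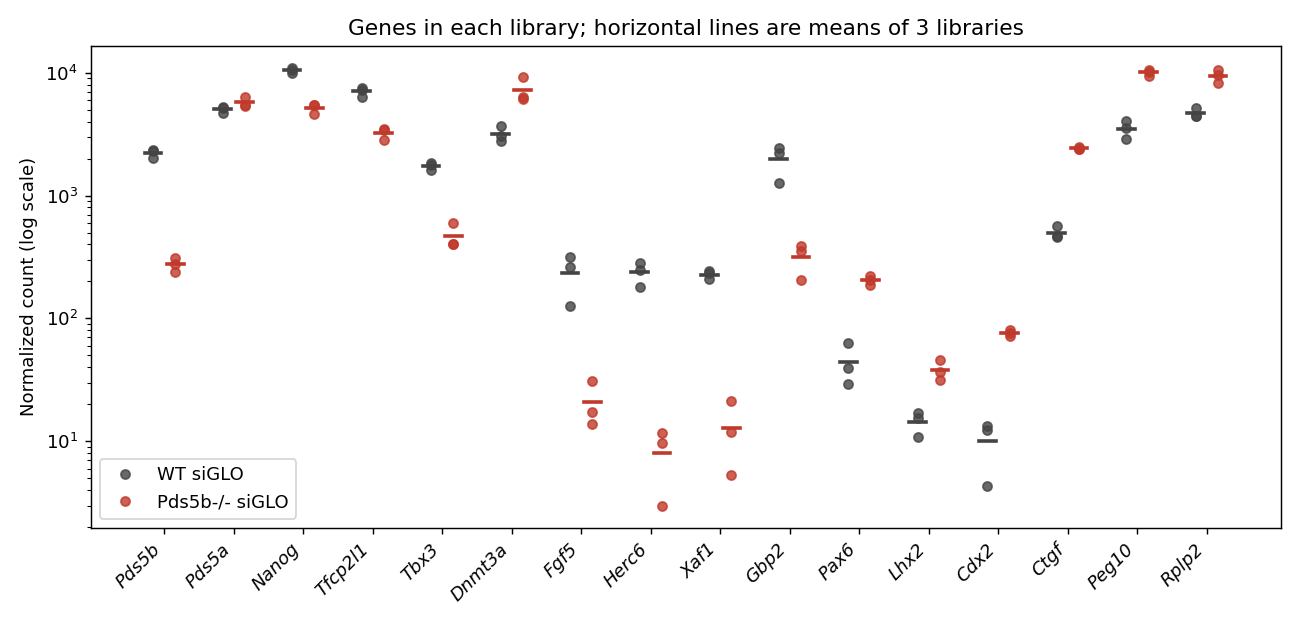
Normalized counts on a log scale of 16 genes in the 3 WT siGLO libraries (grey points) and the 3 Pds5b-/- siGLO libraries (red points), with lines at the means. Except for Pds5a, the genes drawn were DEGs, and for each of the 16 the points of both genotypes do not overlap.

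The genes that fell furthest by the naming rule were led by Herc6, an interferon-induced ubiquitin ligase, at 180, 283 and 249 in WT and at 11.6, 2.99 and 9.71 in Pds5b-/- mESCs (log2 fold change −4.85 ± 0.38, adjusted p = 5.2e-09). Next came Fgf8 (−4.59), a growth factor of the primitive streak, Xaf1 (−4.11), an interferon-induced proapoptotic gene, Fgf5 (−3.49), a marker of the formative epiblast, and Arl14epl (−3.48). Serpinb9 (−3.32), a granzyme B inhibitor, Cd59a (−2.99), a complement inhibitor, Chst1 (−2.96), a sulfotransferase, Psmb8 (−2.85), an immunoproteasome subunit, BC064078 (−2.78) and Serpinb1a (−2.72) followed, apart from Pds5b. Some of these differed among the WT libraries themselves. Fgf8 was at 168 in WT library 1 against 921 and 882 in libraries 2 and 3, and at 7.39, 35.9 and 36.9 in the knockout. Psmb8 was likewise lower in WT library 1, at 162 against 384 and 342. The naming rule took only genes without overlap, so in all of them the lowest WT library was above the highest Pds5b-/- library by choice.

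Most of the genes that rose furthest stood at low counts in WT mESCs. Tex13, a testis-expressed gene on the X chromosome, went from 17.2, 11.3 and 8.27 to no less than 108 in any knockout library (3.20 ± 0.26, adjusted p = 3.61e-09). Fermt1 (3.11), an integrin activator of epithelial cells, Insm1 (2.94), a neuroendocrine transcription factor, Slc15a2 (2.48), a peptide transporter, Slco3a1 (2.40), an organic anion transporter, and Cdcp1 (2.29), a transmembrane protein, were next. Ctgf, a matricellular protein and target of YAP, had the smallest error of these and was at 562, 471 and 460 in WT and at 2411, 2484 and 2378 in Pds5b-/- mESCs (2.28 ± 0.10, adjusted p = 8.81e-14). Car4 (2.24), a carbonic anhydrase, Cxcl16 (2.22), a chemokine, Pax6 (2.20), a neural transcription factor, and Aim1 (2.19) followed.

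Among abundant genes with at least a 2-fold change, those with the highest counts were the pluripotency factor Nanog, which fell from 10502, 9922 and 10935 to 4632, 5468 and 5417 (−1.01 ± 0.13, adjusted p = 6.71e-06), and Tdh, the threonine dehydrogenase of mESCs, which fell from 7539, 9546 and 9458 to 3959, 4597 and 4550 (−1.02 ± 0.11). The others rose. The ribosomal protein gene Rplp2 went from 4442, 5196 and 4465 to 8216, 9608 and 10533 (1.01 ± 0.09). The imprinted gene Peg10 went from 4031, 2904 and 3573 to 9458, 10564 and 10069 (1.52 ± 0.30), the imprinted noncoding RNA Rian from 4266, 3956 and 4202 to 7716, 8523 and 8698, and the basement membrane collagen Col4a1 from 3542, 2597 and 2923 to 10838, 7211 and 6764.

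Naive pluripotency genes were lower. Of 30 members of a list of general and naive pluripotency factors, 13 fell and 2 rose, and the median log2 fold change of the list was −0.33 against −0.0029 over all tested genes. The list's core factors differed in behaviour: Nanog fell, whereas Pou5f1, which encodes OCT4, was at 26620, 27758 and 27483 in WT and 21041, 23677 and 26321 in Pds5b-/- mESCs without passing the test (−0.20 ± 0.08, adjusted p = 0.0593). Sox2 was at 8262, 8384 and 7562 against 8177, 8253 and 7775, with a log2 difference whose standard error was 0.07 (adjusted p = 0.999). The genes that fell furthest were Tbx3, a naive-state transcription factor, from 1826, 1784 and 1610 to 599, 402 and 403 (−1.90 ± 0.16, adjusted p = 4.53e-08), the AKT cofactor Tcl1 (−1.59), Tfcp2l1 (−1.12) and Tdh. Klf4 (−0.88), Esrrb (−0.70), Prdm14 (−0.89) and Zfp42 (−0.76), the gene of REX1, also fell. The 2 members that rose were Dppa3, an early germline and naive-state gene, from 156, 220 and 156 to 337, 535 and 563 (1.45 ± 0.24), and Utf1 (0.77), which lies in a stretch of chromosome 7 described further on. The count of members that fell was 11 or 12 with any 1 library left out.

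Formative and primed-state genes did not move as a group. Of 24 members 6 rose and 1 fell, with a median log2 fold change of 0.21. The de novo DNA methyltransferases rose, Dnmt3a from 3688, 2774 and 3036 to 9126, 6060 and 6296 (1.18 ± 0.25, adjusted p = 0.00244) and Dnmt3b by 0.60 (adjusted p = 0.00669), together with the claudin Cldn6 (0.92) and Utf1. The member that fell was Fgf5, which was at 127, 264 and 316 in WT and at 13.7, 30.9 and 17.5 in the knockout. The number that rose was 2 without Pds5b-/- library 1, without Pds5b-/- library 2 or without WT library 2, and 3 without WT library 3.

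Genes of the germ layers moved in both directions. Of 34 neuroectoderm genes, 26 passed the filter on low counts, 9 rose and 2 fell, and the median was 0.78. A gene could pass that filter through the libraries of 1 condition alone, so a count over the members that passed is a description only. Pax6 went from 62.7, 29.3 and 39.7 to 205, 185 and 222 (2.20 ± 0.28, adjusted p = 4.84e-06), Sox1 from 313, 311 and 278 to 1051, 744 and 637 (1.43 ± 0.21) and Lhx2 from 15.5, 16.9 and 10.8 to 31.7, 36.9 and 45.6. Nes, which encodes the intermediate filament of neural progenitors, was at 1583, 2265 and 2373 in WT and at 1287, 1589 and 1526 in the knockout, and did not pass the test (adjusted p = 0.0543). The neural adhesion gene Ncam1 fell by 1.40 on the log2 scale.

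In the mesoderm and primitive streak list 4 of 28 tested genes fell and 2 rose. Fgf8, Wnt8a (−2.34), Cdx1 (−2.59) and Eomes (−0.99), all genes of the primitive streak, were the 4 that fell, whereas the caudal homeobox genes Cdx2 and Cdx4 rose. Cdx2 was at 4.30, 12.4 and 13.2 in WT and at 71.8, 80.8 and 76.7 in Pds5b-/- mESCs (2.94 ± 0.46, adjusted p = 5.27e-05). WT library 1 held the lowest level of each of the 4 genes that fell, and with it left out 5 members were lower, whereas 1 was lower without Pds5b-/- library 1 or 2 or without WT library 2 or 3, and 2 without Pds5b-/- library 3. The primitive and definitive endoderm list had 3 higher members of 27, Lamb1 (0.76), Col4a1 (1.45) and Col4a2 (1.41), which encode basement membrane chains, and none lower. Col4a1 and Col4a2 lie on chromosome 8, and outside chromosomes 8 and Y and the blocks described below 1 of 25 was higher. Its transcription factors Gata6 and Sox17 did not pass the test (adjusted p = 0.291 and 0.256). In the trophoblast list 6 of 23 rose, among them Cdx2, Fgfr2 (1.78) and Peg10, and 4 fell, among them Ascl2 (−1.49). With 1 library left out, 3 to 5 of the trophoblast genes were higher, and 3 without Pds5b-/- library 2 or without WT library 1 or 2. The 4 lower ones became 1 without Pds5b-/- library 2, 3 without Pds5b-/- library 3 and 2 without any other.

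Some homeobox genes rose, and most did not pass the test. Of 39 Hox genes in the files 22 passed the filter, 6 rose, none fell, and the median was 1.22. Members admitted by the filter only through the knockout raise such a median, so it is a description only. The 4 largest were all of the HoxA cluster, Hoxa5 from 0, 0 and 4.96 to 59.1, 29.9 and 34.0 (adjusted p = 1.59e-05), Hoxa3 from 2.58, 1.13 and 4.13 to 39.1, 36.9 and 27.2, Hoxa4 (2.64) and Hoxa7 (2.30). These 4 remained under 60 normalized counts in every library of both genotypes. In Pds5a-/- mESCs Hoxa5 was at 3.05, 13.1 and 10.6 and Hoxa3 at 13.2, 12.2 and 5.78, and both were higher in Pds5b-/- than in Pds5a-/- mESCs in the direct contrast (adjusted p = 0.0019 and 0.0016). In a list of 111 other homeobox and developmental genes, 83 were tested, 16 rose, 2 fell and the median was 0.74. Tbx4 (2.42), a limb factor, was among those that rose furthest, and Vax2 (−2.18), an eye field factor, and Bmp4 (−0.84), a secreted ligand on this list, fell. Sim1 had no count in the WT libraries and 4.22, 3.99 and 6.79 in the knockout. The number of these genes that rose was 7, 10 and 9 without Pds5b-/- library 1, 2 or 3 and 9 and 10 without WT library 1 or 2. Polycomb group genes, whose products hold such genes silent, were higher in 6 of 36 (16.7%, against 9.64% of all tested genes) and lower in none. The largest rise was 0.55, that of the CpG-island-binding factor Kdm2b (2532, 2467 and 2661 in WT against 4307, 3711 and 3192 in the knockout). The number higher was 4 without Pds5b-/- library 1 or 2 or WT library 2. It was 5 without WT library 1 or 3 and 8 without Pds5b-/- library 3.

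**Figure D2:**
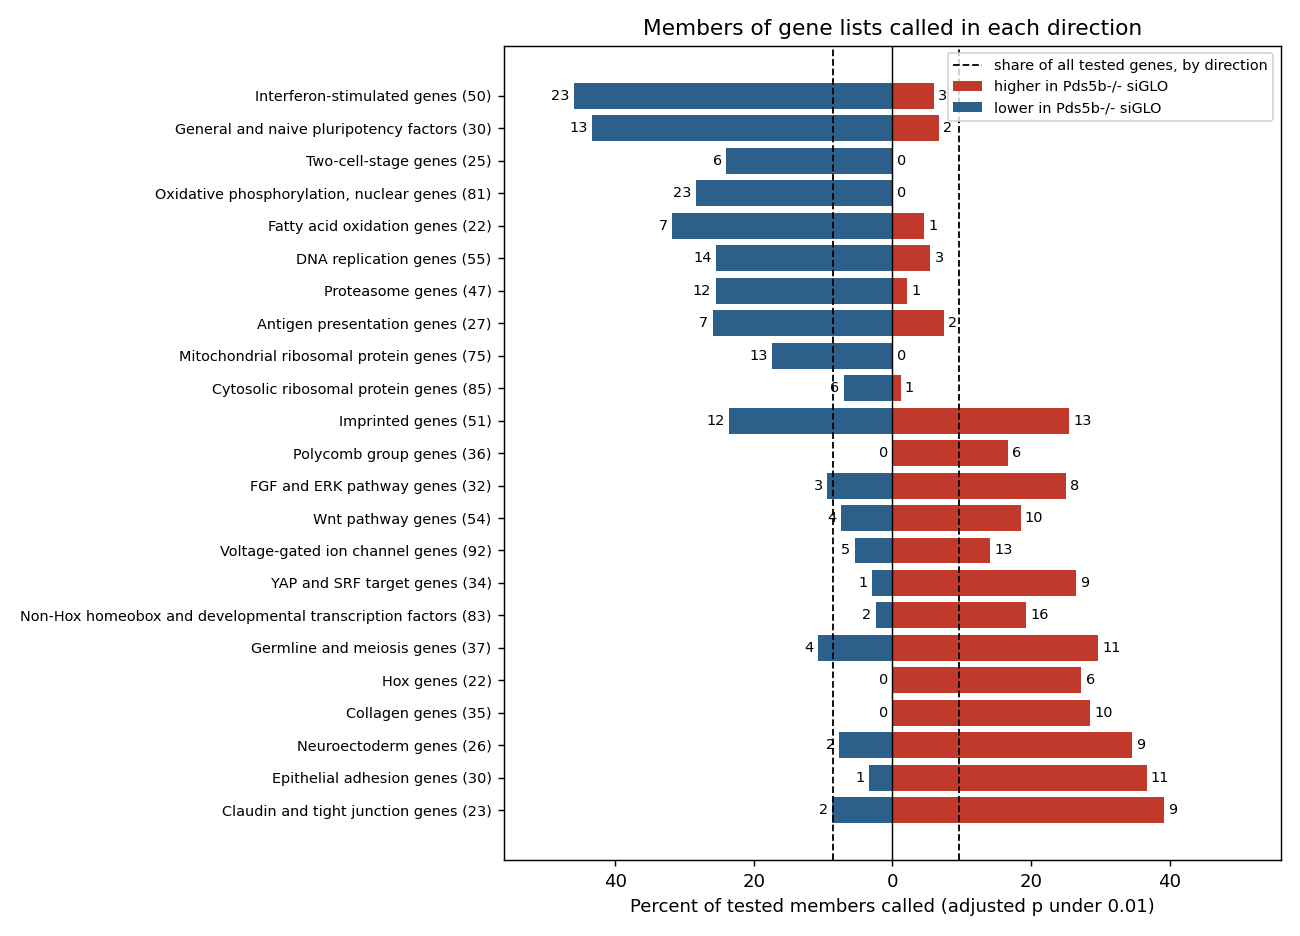
Share of the tested members of each gene list (number tested in parentheses) that were DEGs, to the right where higher and to the left where lower in Pds5b-/- siGLO mESCs, with the number of members at each bar. The dashed lines mark 9.64% and 8.57%, the shares of all tested genes. In it 23 of 50 interferon-stimulated genes and 13 of 30 pluripotency factors were lower.

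Interferon-stimulated genes were lower. These genes encode antiviral effectors and are switched on by transcription factors that bind the interferon-stimulated response element (ISRE). Of 50 tested members 23 fell and 3 rose, 41 had a log2 fold change below 0 (against 50.3% of all tested genes), and the median was −0.82. Herc6 and Xaf1, given above, were the furthest, followed by Zbp1, a sensor of Z-form nucleic acid, from 54.1, 122 and 111 to 10.6, 14 and 11.6 (−2.96 ± 0.32, adjusted p = 3.92e-07), and Lgals3bp, a secreted glycoprotein, from 18, 41.7 and 33.9 to 1.06, 6.98 and 3.88. Gbp2, a guanylate-binding GTPase and one of the more abundant, went from 1273, 2448 and 2230 to 204, 386 and 352 (−2.65 ± 0.32, adjusted p = 2.21e-05). Isg15, a ubiquitin-like modifier, fell from 26.6, 66.5 and 80.2 to 17.9, 12 and 23.3 (adjusted p = 0.00989). WT library 1 was the lowest WT library for Gbp2, Zbp1, Isg15 and Lgals3bp. With any 1 library left out, 17 to 25 members were lower.

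The 3 interferon-list members that rose were Gbp7, another guanylate-binding protein (14.6, 10.1 and 15.7 against 33.8, 61.8 and 40.8), and the interferon-induced transmembrane genes Ifitm3 (2354, 2375 and 2235 against 4186, 5371 and 6221) and Ifitm2 (0.41), both in the stretch of chromosome 7 described further on. Against WT siPds5b mESCs, 18 members were lower and 2 higher. In the direct contrast with Pds5a-/- mESCs 19 were lower and 1 higher, where 9.74% and 9.46% of all tested genes were. Zbp1 was at 113, 118 and 99.3 in Pds5a-/- mESCs, within the range of WT, and Oas1a, a 2-5 oligoadenylate synthetase, was at 97.5, 138 and 104 there against 147, 112 and 142 in WT and 24.3, 22.9 and 29.1 in Pds5b-/- mESCs. Herc6 was low in both knockouts, at 9.14, 24.3 and 16.4 in Pds5a-/- mESCs.

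Genes of antigen presentation, many of which share these regulators, fell in 7 of 27 tested cases and rose in 2. Psmb8, the peptide transporter subunit Tap2 (107, 288 and 291 against 53.8, 79.8 and 76.7), the aminopeptidase Erap1 (−1.62) and the proteasome activator Psme2 (−1.31) fell furthest. Nlrc5, the transactivator of class I genes, rose from 13.7, 2.25 and 5.79 to 40.1, 31.9 and 32.0. Nlrc5 and Calr (0.22), the other member that rose, lie on chromosome 8, which was higher as a whole. The number lower was 4 without Pds5b-/- library 1 and 5 to 8 without another.

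To show the shared promoter element, RefSeq promoter windows of 300 bases (GRCm38.p6, 250 before and 50 after each start site) were searched for an ISRE-like motif (GAAA, then 2 bases of any kind, then GAAA) on both strands. It occurred in 399 of 11727 tested genes with a promoter sequence (3.40%) and in 18 of 37 interferon-list genes. Among list members with a promoter sequence it occurred in 8 of 17 that fell and in 10 of 20 others. Of DEGs off the list, 45 of 1009 lower ones (4.46%) held it. The 100 bases before the start site are printed for 3 members that fell and have it there, in the direction of the gene, with the motif or its reverse complement in capitals. They are Gbp2 (plus strand, chr3:142620563-142620662), Oas1a (minus strand, chr5:120907526-120907625) and Isg15 (minus strand, chr4:156200819-156200918). Matches may overlap, and Gbp2 holds 1, Oas1a 2 and Isg15 3 of them.
Gbp2: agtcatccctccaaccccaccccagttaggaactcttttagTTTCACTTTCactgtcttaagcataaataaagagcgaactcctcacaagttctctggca
Oas1a: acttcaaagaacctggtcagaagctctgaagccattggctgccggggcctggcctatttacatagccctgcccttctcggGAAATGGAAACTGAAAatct
Isg15: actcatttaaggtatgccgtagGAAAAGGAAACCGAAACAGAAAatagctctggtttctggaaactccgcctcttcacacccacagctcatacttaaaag
The promoters of DEGs also differed in CpG content. The median ratio of observed to expected CpG was 0.817 in 1106 genes that rose, 0.73 in 1026 that fell and 0.77 in those that were not called. Of genes with a ratio under 0.2, 5.27% rose and 13.1% fell, and of genes at 0.8 or above 11.2% rose and 7.21% fell.

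Many epithelial adhesion, tight junction and collagen genes rose. In the list of epithelial adhesion genes 11 of 30 rose and 1 fell (median 0.59). The splicing regulator Esrp1 rose from 550, 551 and 462 to 1058, 1424 and 1268 (1.26 ± 0.10, adjusted p = 5.2e-09). E-cadherin, Cdh1, the adhesion molecule of mESC colonies, went from 8534, 7535 and 7267 to 16214, 15791 and 14097 (0.98 ± 0.08). Of 23 claudin and tight junction genes 9 rose, among them Cgn (1.18), Marveld1 (1.13) and Cldn7 (1.10), and the junctional adhesion molecules Jam2 (−1.10) and Jam3 (−0.93) fell. Of 35 collagen genes 10 rose and none fell, from Col18a1 (0.65) to Col27a1 (41.2, 62.0 and 56.2 against 149, 180 and 163) and Col25a1 (3.00). Other matrix and adhesion families differed. Of 24 laminin, nidogen and heparan sulfate proteoglycan genes 3 rose and 3 fell, of 22 integrin genes 1 rose and 2 fell, and of 18 keratin genes 1 rose and 2 fell. The medians of these lists were 0.17, −0.016 and 0.82. Of 48 keratin genes in the files only 18 passed the filter, so their median is a description only. It lay between 0.086 and 1.35 in the alternative fits. Of 12 cadherin genes 3 rose and none fell, and outside chromosomes 8 and Y and the blocks described below 1 of 8 was higher. Marveld3 (1.29), Esrp2 (0.82), Cdh1, its neighbour Cdh3 (1.43), Col4a1 and Col4a2 lie on chromosome 8, which was higher as a whole, and Pkp3 (1.24) lies in the higher stretch of chromosome 7. Outside those positions 8 of 27 epithelial, 8 of 21 tight junction and 8 of 33 collagen genes were higher. The epithelial count was 6 without Pds5b-/- library 2 or WT library 3 and 7 without Pds5b-/- library 3 or WT library 2, and the tight junction count was 5 without Pds5b-/- library 2 or 3 or WT library 3.

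Targets of YAP and SRF, which include many genes of the cytoskeleton and of early growth response, rose in 9 of 34 cases and fell in 1. Besides Ctgf these were the calponin Cnn1 (1.42), the muscle ankyrin Ankrd1 (86.8, 68.7 and 77.7 against 209, 157 and 155) and the immediate early factor Egr1 (315, 279 and 259 against 513, 634 and 508). Smooth muscle actin, Acta2, was the member that fell, from 1212, 1128 and 1647 to 282, 436 and 534, and its call was lost with any 1 library left out. Vim, the vimentin gene of the mesenchymal list, fell from 4881, 6000 and 6603 to 2845, 2305 and 2678 (−1.16 ± 0.15, adjusted p = 1.43e-05). Of 20 tested fibroblast and feeder cell markers 2 rose and 4 fell, with Postn (−3.68), which encodes periostin, the furthest down. With any 1 library left out 2 of these markers were lower. Their summed normalized count was 20346 to 24225 in WT and 15901 to 17741 in Pds5b-/- libraries. The part of these markers in the results was not tested.

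Signalling pathways moved in a mixed way. Over all tested genes, 9.64% were higher and 8.57% lower. In the FGF and ERK list 8 of 32 rose and 3 fell: the ligands Fgf8, Fgf5 and Fgf4 (−0.89) were the 3 that fell, whereas the receptors Fgfr2 (85.1, 51.8 and 68.6 against 261, 262 and 192) and Fgfr1 (0.67), the phosphatase Dusp4 (0.97), and the feedback inhibitors Spry1 (0.62), Spred1 (0.50) and Spred2 (0.42) rose. Of the 32, 2 lie on chromosome 8, which was higher as a whole, and Fgf4 lies in the lower stretch of chromosome 7. Outside chromosomes 8 and Y and the blocks described below, 6 of 28 were higher and 2 lower. Among 54 Wnt genes 10 rose, led by the receptor-degrading ligase Rnf43 (1.45), the ligand Wnt7b (1.42) and the secreted inhibitor Sfrp2 (126, 177 and 173 against 387, 403 and 361), and 4 fell, led by Cdx1 and Wnt8a. The Wnt count of higher genes was 6 without Pds5b-/- library 2 or WT library 1. The count of lower Wnt genes was 1 without Pds5b-/- library 3 or WT library 2 and 2 without Pds5b-/- library 1 or 2 or WT library 3. In the Notch list 5 of 23 rose, with Jag2 (1.31) and Dll1 (1.14) as the furthest, and 2 fell. Without Pds5b-/- library 2 or WT library 1 the number of higher Notch genes was 3, and without any 1 library other than WT library 1 the number lower was 1. Retinoic acid genes split evenly, 3 higher and 3 lower of 22 (13.6% each). The reductase Dhrs3 (−2.24) and the retinal dehydrogenase Aldh1a3 (−1.81) fell furthest. Of 36 p53 targets 5 rose (13.9%) and 2 fell (5.56%), and 3 rose without Pds5b-/- library 1 or WT library 2 or 3. Of 22 LIF and STAT3 genes 1 rose (4.55%) and 2 fell (9.09%).

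Nuclear genes of mitochondrial respiration were lower by a small amount. Of 81 nuclear genes of oxidative phosphorylation 23 fell and none rose, 76 had a log2 fold change below 0, and the median was −0.27. The complex I subunit Ndufb4 was at 455, 578 and 498 in WT and at 288, 268 and 381 in Pds5b-/- mESCs (−0.70 ± 0.15), and Ndufb11 at 1391, 1597 and 1419 against 841, 873 and 1199. Of 75 mitochondrial ribosomal proteins 13 fell (median −0.21), of 22 fatty acid oxidation genes 7 fell and 1 rose, led by the carnitine carrier Slc25a20 (−1.14), and of 29 tricarboxylic acid cycle genes 6 fell. Cytosolic ribosomal proteins fell in 6 of 85 cases, below the 8.57% of all tested genes, though 82 had a log2 fold change below 0 (median −0.24). Rpl39l, a paralog whose reads can be hard to separate from those of its parent gene, fell furthest, and Rpl15 went from 16800, 17763 and 16136 to 11203, 12782 and 14360. Of 47 proteasome genes 12 fell, led by the immunoproteasome subunit Psmb8 and the proteasome activator Psme2, and 1 rose.

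The counts of these lists moved with single libraries. Oxidative phosphorylation genes were lower in 6, 9 and 38 cases without Pds5b-/- library 1, 2 or 3, and in 7 and 12 cases without WT library 2 or 3. Mitochondrial ribosomal proteins were lower in 3 and 4 cases without Pds5b-/- library 1 or 2 and in 7, 5 and 4 without WT library 1, 2 or 3. Cytosolic ribosomal proteins were lower in 2, 3 and 28 cases without Pds5b-/- library 1, 2 or 3 and in 3, 2 and 3 without a WT library. Proteasome genes were lower in 6 cases without Pds5b-/- library 1 or 2 or WT library 3 and in 7 without WT library 2, and tricarboxylic acid cycle genes in 3 without Pds5b-/- library 1.

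Transcript length moved with these results. Genes outside the regions described below were put into 5 classes of like size by the length of their longest transcript. The class with the shortest transcripts, up to 1913 bases, had a median log2 fold change of −0.17 and the class with the longest, from 5215 bases, of 0.14. In the shortest class 358 genes fell and 80 rose, and in the longest 124 fell and 406 rose. The gradient differed between the knockout libraries. The median log2 ratio to the WT mean in the shortest class was −0.29, −0.20 and −0.056 in Pds5b-/- libraries 1, 2 and 3, and −0.015, 0.026 and −0.018 in the WT libraries. The median transcript length was 1046 bases for oxidative phosphorylation genes and 1059 bases for cytosolic ribosomal proteins. Relative to the median of genes of their own length class, those lists had medians of −0.15 and −0.082, pluripotency factors of −0.23 and interferon-stimulated genes of −0.87. Whether RNA quality or library preparation differed was not tested.

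**Figure D3:**
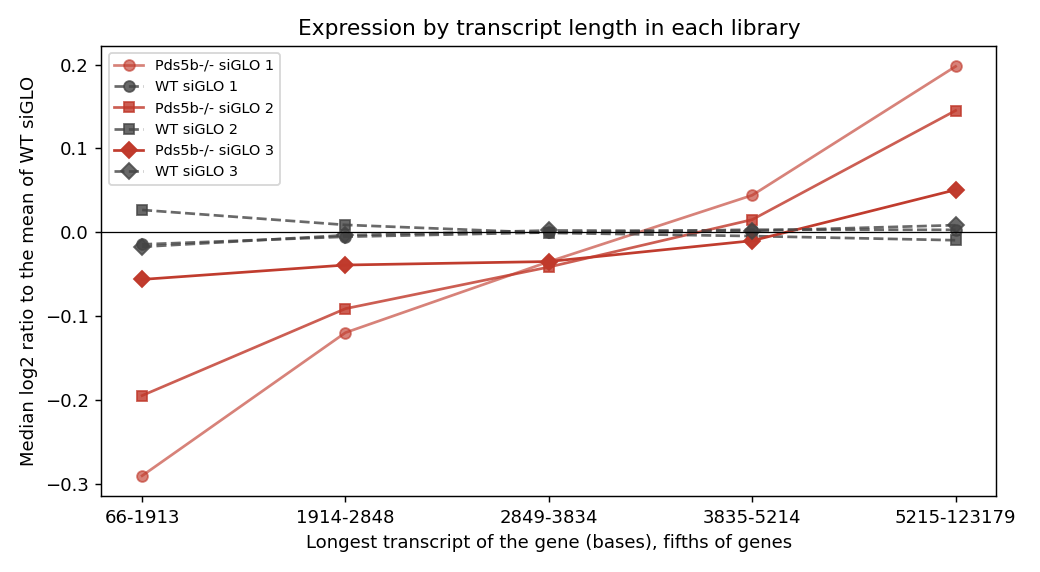
Median log2 ratio of normalized counts to the mean of WT siGLO (y axis) in 5 classes of genes by the length in bases of their longest transcript (x axis), for each library. Pds5b-/- library 1 rises from −0.29 to 0.20 and library 3 from −0.056 to 0.05, while the WT libraries stay close to 0.

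DNA replication genes were lower in 14 of 55 cases and higher in 3, with a median of −0.17. The licensing inhibitor Gmnn was at 2639, 2782 and 2601 in WT and at 1528, 1765 and 2038 in the knockout (−0.59 ± 0.08, adjusted p = 9.06e-06), and the primase subunit Prim2 (−0.53), Rpa3 (−0.53) and the sliding clamp Pcna (−0.48) followed. The list's median transcript length was 3205 bases, and 10 to 12 of its members were lower with any 1 library left out. The number higher was 1 without Pds5b-/- library 1 or 2 or WT library 2 or 3. In the mitosis list 4 of 52 rose and 6 fell, the securin gene Pttg1 furthest (1615, 1598 and 1458 against 624, 907 and 939). Without WT library 1, 3 mitosis genes were lower. Apoptosis regulators fell in 9 of 33 cases, by 0.28 to 2.69 (Casp12), and rose in 3.

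Cohesin genes changed in both directions. Of 26 tested, 4 rose (15.4%) and 3 fell (11.5%), Pds5b included, against 9.64% and 8.57% of all tested genes. Without Pds5b-/- library 3, 7 of them rose. The meiotic kleisin Rec8 rose from 225, 212 and 168 to 458, 444 and 449 (1.16 ± 0.17, adjusted p = 1.82e-05), and Pttg1 and the loader of the replication clamp Dscc1 (−0.49) fell. The loop anchor factor Ctcf (3793, 3741 and 3816 against 5011, 4541 and 4220), the loader subunit Mau2 (0.30) and Chtf8 (0.28) rose, and these 3 lie on chromosome 8. Wapal, the cohesin release factor, was at 5593, 4754 and 5279 in WT and at 6288, 4860 and 4921 in the knockout and did not pass the test (adjusted p = 0.767), nor did the ring subunit Smc1a (adjusted p = 0.121).

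Genes of the germline and of early embryos moved apart. In the germline and meiosis list 11 of 37 tested genes rose and 4 fell. Tdrd1, of the piRNA pathway, went from 47.3, 37.2 and 45.5 to 187, 167 and 163 (1.98 ± 0.17, adjusted p = 1.09e-08), and the synaptonemal gene Sycp2 from 25.8, 18 and 12.4 to 58.1, 75.8 and 64.1. Genes of the 2-cell stage were lower, with 6 of 25 falling, none rising and 23 below 0. Zscan4a was at 778, 501 and 605 in WT and at 281, 185 and 219 in Pds5b-/- mESCs, with 78.2, 73.9 and 52.0 in Pds5a-/- mESCs, and Tcstv1 was at 41.2, 39.4 and 31.4 against 11.6, 11 and 12.6. Both belong to families of near-identical copies, so how their reads were assigned is uncertain. In the direct contrast 11 of the 25 were higher in Pds5b-/- than in Pds5a-/- mESCs and none lower. The count against WT was 2 without Pds5b-/- library 2 and 4 to 7 without another library. The Prame-like genes Pramel6 (18, 12.4 and 17.4 against 0, 0.997 and 0) and Pramel7 (−3.05) fell too.

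Other large families and pathways are given beside the shares of all tested genes, 9.64% higher and 8.57% lower. Zfp genes lay below both shares, and solute carriers lay close to them. Of 319 Zfp genes 21 rose (6.58%) and 20 fell (6.27%), and of 244 solute carriers 25 rose (10.2%) and 24 fell (9.84%). Of 196 Tmem genes 13 rose (6.63%) and 19 fell (9.69%). The lower Tmem count was 9 and 12 without Pds5b-/- library 1 or 2 and 10 without WT library 3. Of 99 splicing factors 8 rose (8.08%) and 3 fell (3.03%). The higher splicing count was 4 without WT library 1 and 5 without Pds5b-/- library 1 or 2. Of 43 ribosome biogenesis genes 2 rose (4.65%). Of 92 voltage-gated ion channel genes 13 rose (14.1%), such as the potassium channels Kcna6 (2.55) and Kcna1 (2.43), and 5 fell (5.43%). The higher count of these channels was 6 without Pds5b-/- library 2 and 8 without WT library 3. The lower count of these channels was 2 without any 1 Pds5b-/- library and 3 without any 1 WT library. Without a library the Zfp counts lay between 11 and 24 higher and between 11 and 15 lower. Of 24 unfolded protein response genes 2 rose and 1 fell, by 0.22 to 0.30. The lower call was lost with any 1 library left out, and both higher calls without Pds5b-/- library 1 or 2 or WT library 2 or 3. Amino acid stress genes were lower in 3 of 32 and higher in none.

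Position on the chromosome set apart several groups of genes. Genes on chromosome 8 were higher as a whole: 284 of 781 tested genes rose (36.4%) and 11 fell, 651 had a log2 fold change above 0 (83.4%, against 49.7% of all tested genes), and the median was 0.30, a 1.23-fold level. The median of the other chromosomes except Y lay between −0.066 and 0.034. The 3 knockout libraries gave medians of 0.29, 0.29 and 0.30 on chromosome 8. The same genes had a median of −0.19 in Pds5a-/- against WT mESCs, and of −0.014 in WT siPds5b against WT mESCs. DNA copy number was not measured in these libraries.

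Windows of 15 neighbouring tested genes in which at least 8 were DEGs in the same direction gave 20 blocks, of which 13 were on chromosome 8 and 7 elsewhere. Each block was trimmed to its first and last DEG of that direction, so the share and direction of DEGs within it follow in part from this choice. The 7 hold 187 tested genes, 126 of them DEGs. The largest was the end of chromosome 7, where 2 blocks of opposite direction adjoin. From Tcerg1l to Ap2a2 (chr7:138208972-141633011, mm10 coordinates of the first and last gene), 50 of 65 genes rose, none fell and the median was 0.77, a 1.71-fold level. Phrf1, a PHD and RING finger gene, went from 2133, 2407 and 2310 to 5719, 5621 and 5024 (1.26 ± 0.08, adjusted p = 1.77e-10), Taldo1, of the pentose phosphate pathway, from 5190, 5326 and 5096 to 7412, 7018 and 7962, and Rplp2 as given above. From Tollip to Tpcn2 (chr7:141881580-145284011) 26 of 41 genes fell, none rose and the median was −0.85, a level of 0.555 of WT. The ribosomal protein gene Mrpl23 was at 634, 743 and 642 against 337, 351 and 431, the cyclin Ccnd1 at 2812, 3249 and 3524 against 1941, 1974 and 1930, and Fgf4 at 5944, 4971 and 4574 against 2812, 2633 and 2915. The lower block runs to the last tested gene of the chromosome. In Pds5a-/- mESCs the medians of these blocks were 0.16 and 0.15.

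**Figure D4:**
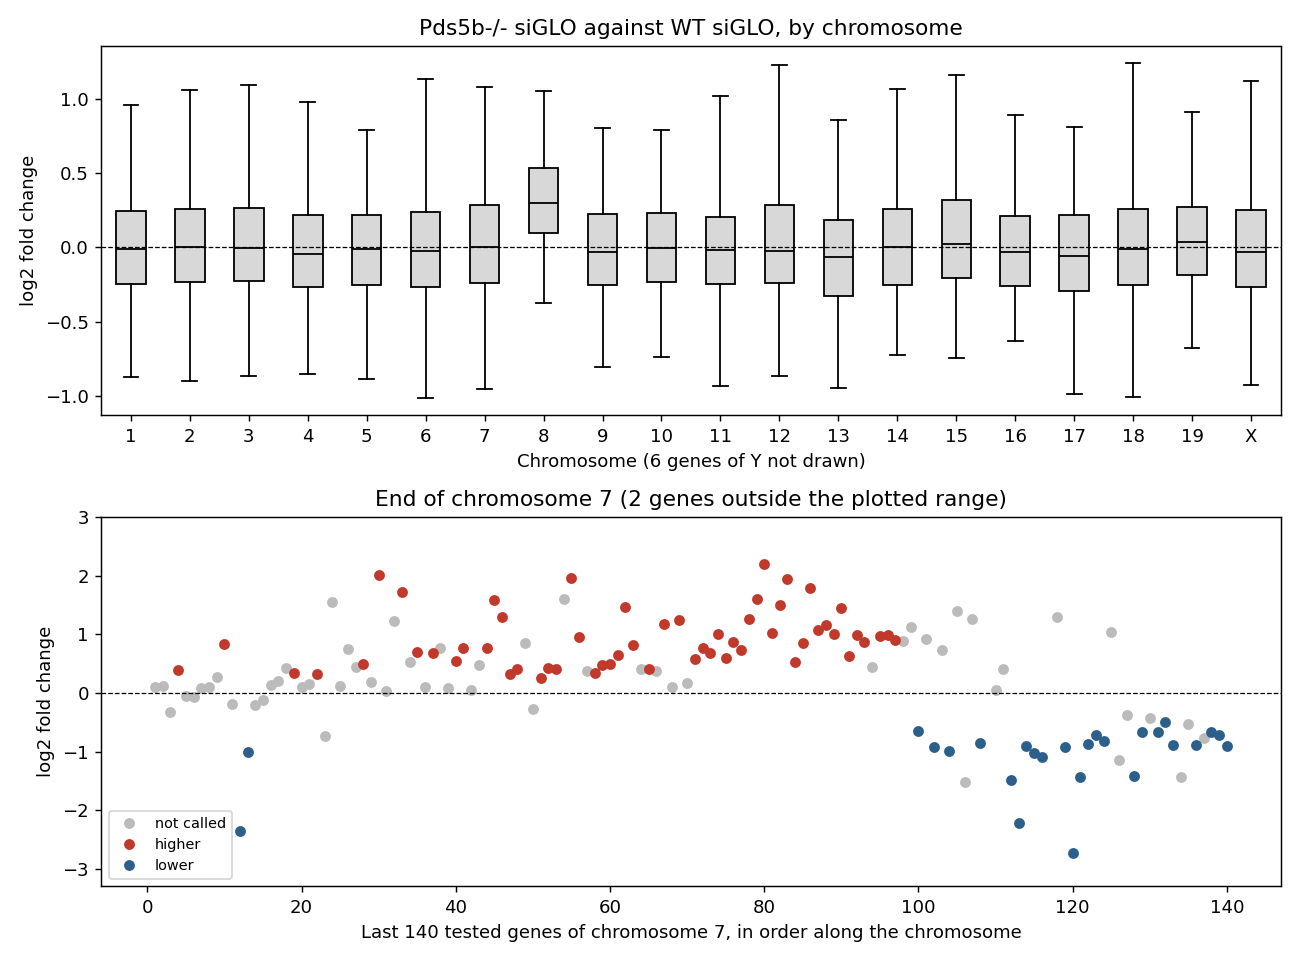
Upper panel, box plots of log2 fold change by chromosome (boxes from the first to the last quartile with the median, whiskers at the 5th and 95th percentiles), in which chromosome 8 has a median of 0.30. Lower panel, the last 140 tested genes of chromosome 7 in order (x axis) with their log2 fold change (y axis), where a run of higher genes is followed by a run of lower genes to the end.

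The other blocks were smaller. On chromosome 12, 13 of 18 genes from Inf2 to Tmem121 (chr12:112588744-113189523) rose with a median of 0.67, among them the kinase Akt1 (1334, 1423 and 1338 against 2167, 2200 and 2200) and Jag2. On chromosome 13, 12 of 21 genes from Hus1b to Pxdc1 (chr13:30946576-34652681) fell, among them 6 serpin genes and the tubulin genes Tubb2a (−0.98) and Tubb2b (6789, 6804 and 7084 against 2834, 3166 and 3598). Outside that block no serpin gene was lower and 4 were higher. On chromosome 17, 8 of 12 genes from Vmac to Gtf2f1 fell, and on the X chromosome 8 of 14 from Otud5 to Rbm3, among them the stem cell Ras gene Eras (−0.97) and the kinase Pim2 (−2.43). Against WT siPds5b libraries the same blocks had 47 higher and 26 lower DEGs on chromosome 7, 13 higher on chromosome 12 from Inf2, and 12 lower on chromosome 13. That comparison uses the same knockout libraries.

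Imprinted genes, which are expressed from the allele of 1 parent, were in part members of such blocks, with 16 of the 51 tested in 1 of them. Of the 51, 13 rose and 12 fell. Along the end of chromosome 7, H19 went from 113, 118 and 122 to 8.44, 7.98 and 9.71 (−3.74 ± 0.31, adjusted p = 5.99e-09), the growth inhibitor Cdkn1c from 472, 353 and 384 to 231, 189 and 217 and Slc22a18 fell by 2.73, whereas Igf2, between them, was at 995, 1032 and 1309 against 828, 1328 and 1307 (adjusted p = 0.932). Kcnq1 was at 2.58, 6.76 and 4.13 in WT and had no count in the knockout. The Dlk1 and Meg3 cluster of chromosome 12 (chr12:109452485-110666944) rose in 9 of 16 genes, Meg3 from 2304, 2410 and 2223 to 4858, 6156 and 5509 (1.25 ± 0.14), Dlk1 from 78.2, 52.9 and 79.4 to 248, 279 and 267, and Rian as given above. This cluster also had a median of 0.61 in Pds5a-/- against WT mESCs. Outside all blocks and chromosomes 8 and Y, 8 of 34 imprinted genes rose, among them Peg10, Peg13, Mest (0.97) and Impact (2697, 2726 and 2984 against 6192, 5862 and 6054), and 4 fell.

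On chromosome Y most tested genes were lower. Of 6 tested genes, 4 fell. The raw counts of Ddx3y, an RNA helicase, were 149, 133 and 179 in WT and 6, 3 and 7 in Pds5b-/- libraries, those of the demethylase Uty were 48, 66 and 79 against 2, 2 and 2, and those of Kdm5d were 23, 41 and 51 against 0, 0 and 0. The raw counts of Eif2s3y, a translation factor, were 77, 92 and 109 in WT, 35, 27 and 23 in Pds5b-/- and 545, 643 and 549 in Pds5a-/- libraries. Uba1y and Zfy1 had at most 16 counts in the WT and Pds5b-/- libraries and went the other way. Uba1y was at 2, 6 and 6 in WT against 11, 11 and 16, and Zfy1 at 1, 0 and 0 against 3, 2 and 3. Neither passed edgeR's quasi-likelihood test (adjusted p = 0.012 and 0.0571).

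Without chromosomes 8 and Y and the 7 other blocks, 1087 genes rose (7.77%) and 1213 fell (8.67%) of 13989 tested. In that set 23 of 46 interferon-stimulated genes fell and 1 rose, 11 of 26 pluripotency factors fell and 1 rose, 8 of 23 neuroectoderm genes rose and 2 fell, and 6 of 22 Hox genes rose. These genes were left out after the data had been seen.

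In the direct contrast of both knockouts, 1416 genes (9.46%) were higher and 1457 (9.74%) lower in Pds5b-/- than in Pds5a-/- siGLO mESCs. The total of 2873 was 1837 and 1904 without Pds5b-/- library 1 or 2, 1722 without Pds5a-/- library 2 and 1810 with only these conditions in the fit. Some of the genes named above did not pass the test between the knockouts. Nanog was at 5658, 6471 and 6691 and Tbx3 at 513, 679 and 758 in Pds5a-/- mESCs (adjusted p = 0.1 and 0.031). Fgf5, at 37.6, 26.2 and 17.3, had an adjusted p of 0.63 by the same test. Others passed it. Pax6 was at 107, 69.2 and 60.7 in Pds5a-/- mESCs, lower than in Pds5b-/- mESCs by 1.37 on the log2 scale (adjusted p = 0.00052), and Sox1, on chromosome 8, was at 171, 103 and 98.3, below WT. Peg13 was at 2.03, 0.935 and 0 in Pds5a-/- mESCs against 23.2, 20.3 and 15.7 in WT and 86.6, 91.7 and 74.7 in Pds5b-/- mESCs. Igf2 was at 3705, 7769 and 9366 and Cdkn1c at 1640, 1741 and 1590 in Pds5a-/- mESCs, both above the Pds5b-/- libraries (adjusted p = 0.0002 and 4.3e-10).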

How the data were processed

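Poly-A RNA of 21 libraries (7 conditions with 3 libraries each) was sequenced, and the authors aligned reads to mm10 with STAR and deposited raw counts for 23412 gene symbols. The counting tool, annotation and strand setting are not given in the sources used here. Deposited counts of 14963 genes passed filterByExpr and were fitted over all 21 libraries with edgeR (version 4.0.16, R 4.3.3; TMM scaling, robust quasi-likelihood test), with Benjamini-Hochberg adjustment at 0.01. Normalized counts are counts scaled to the mean effective library size of 19816922. The fit was also run on independent simulated counts with set changes, drawn from the WT means and the fitted spread. Those counts held no transcript length, chromosome or replicate effects, so the run cannot speak to them. Alternatives were DESeq2 1.42.0, other scalings, filters, thresholds and samples, a replicate block, and leaving out each library.

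The members and gene lists were chosen with earlier results of these data known. Named genes are Pds5b and Pds5a, the 12 largest increases and decreases without overlap between libraries at a mean log2 CPM of at least 1, the 6 most abundant DEGs changed by at least 1 on the log2 scale, and the called members of each list in order of size, up to 4 a direction, with its defining members. Other genes, such as those of positional blocks and printed promoters, were chosen after their values were seen. Total counts limit the precision of low genes, and no value was inferred for genes that did not pass the filter. Results for some genes that met the rule are not reported here.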

Additional observations from a re-analysis of the deposited data

Results flagged for a closer look

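Slc15a2, a peptide transporter, differed between the knockouts by 3.54 on the log2 scale (adjusted p = 1.6e-07 by edgeR's quasi-likelihood test). It was at 21.5, 22.5 and 19 in WT siGLO, 83.4, 157 and 112 in Pds5b-/- siGLO and 4.06, 13.1 and 12.5 in Pds5a-/- siGLO libraries, so that each knockout library lay on its own side of WT. Slc15a2 was flagged as a DEG against WT and between the knockouts, with opposite directions and a Pds5a-/- log2 change of at least 1. The low adjusted p and the opposite directions therefore follow from that choice.

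Genes on chromosome 8 differed between the knockouts with a median of 0.476 on the log2 scale, since they were higher in Pds5b-/- and lower in Pds5a-/- than in WT mESCs. Of 781 tested genes 419 were higher and 7 lower in Pds5b-/- than in Pds5a-/- mESCs. DNA copy number was not measured in these libraries, so copy number and expression per copy cannot be told apart.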

How the results depend on the processing

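No named gene had opposite directions in the main fit and an alternative fit where it was a DEG in either. Changes of sign in genes called in neither fit were not counted. Of 688 named genes 424 were DEGs, 280 of them in every alternative fit that tested them. A fit that dropped a gene was not counted against it, and the added limit on the log2 change was not applied here. The WT comparison gave 3176 DEGs with DESeq2, 2720 with RLE scaling and 2300 outside chromosomes 8 and Y and the blocks, an alternative chosen after seeing the data. The other 144 named DEGs lost their call in at least 1 alternative fit, and the causes were not tested.

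At an adjusted p under 0.05 there were 4677 DEGs against WT siGLO (2370 higher, 2307 lower), 4849 against Pds5a-/- siGLO (2317 and 2532) and 4715 against WT siPds5b (2322 and 2393). When a log2 change of 1 or more was also required, there were 731 (373 and 358), 581 (219 and 362) and 681 (324 and 357). With only the conditions compared in the fit, the contrast with Pds5a-/- gave 1810 DEGs, 1014 higher and 796 lower. The causes were not tested. Leaving out each library gave 1704 to 2611 DEGs against WT siGLO (919 to 1459 higher, 785 to 1152 lower), 1722 to 2683 against Pds5a-/- (956 to 1489, 766 to 1251) and 1685 to 2797 against WT siPds5b (872 to 1482, 811 to 1315).

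Deviations of same-numbered WT and Pds5b-/- libraries correlated with r of 0.30, 0.23 and 0.089 across 12029 genes, and genes are not independent replicates. Only the number is therefore known to be shared. With the replicate block, 3316 genes were DEGs against WT siGLO (1762 higher, 1554 lower), 1 named gene lost its call and 37 gained one. Of the lists described, the block raised the higher endoderm genes from 3 to 9, p53 targets from 5 to 12, trophoblast genes from 6 to 10 and laminin list genes from 3 to 6, and the lower mesoderm, Wnt and fibroblast genes from 4 to 8 each, 2-cell genes from 6 to 12 and collagen genes from 0 to 3. Pds5b-/- library 3 correlated more with WT library 2 than with its own number.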
